A study of Mus musculus with 16 samples.

Results

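The 8 genes described here, Cd3e, Cd4, Cd69, S1pr1, Ccr7, Klf2, Il7r and Ctla4, are genes by which CD4+ T cells are recognised, move through lymphoid tissue, are kept at rest and are activated. They were picked by symbol, with earlier results of these data known, and each is measured by 1 probe set, so the set makes up 8 of the 19752 genes that could be named on the array. The study measured RNA with 16 Affymetrix mouse gene arrays, 2 in each of 8 groups. CD4+ T cells (TCRB+ CD4+ CD8-) were sorted from the spleen of 7-week-old male B10.Q/J mice after vehicle, 2 h after IFNα or 5 h after IFNα. Peritoneal macrophages (F4/80+ ICAM2+) came from mice of the same strain, age and sex in the same 3 groups. Peritoneal macrophages of 6-week-old male B6.129S2-Ifnar1tm1Agt/Mmjax mice, which lack a subunit of the type I interferon receptor and are called Ifnar1 KO below, formed the other 2 groups, 2 h after IFNα and without IFNα by title. IFNα was injected under the skin at 10000 units. B10.Q mice are known to carry a natural mutation of Tyk2, a kinase of that receptor, so every T-cell group carries it, controls included, and no group had both Ifnar1 and Tyk2 intact.

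The question named by the series title is whether interferon-stimulated genes need Ifnar1 and Tyk2. As background, naive T cells enter lymph nodes with the help of the chemokine receptor CCR7 and leave them along a gradient of sphingosine 1-phosphate sensed by S1PR1. The membrane protein CD69, which type I interferon is known to induce on lymphocytes, binds S1PR1 and removes it from the cell surface, and the transcription factor KLF2 drives S1pr1 transcription in resting T cells. Only RNA was measured here, so surface receptor was outside the reach of these data.

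RefSeq promoters (mouse build GRCm38.p6) were at hand for 4 of the 8 genes, Cd3e, Ctla4, Il7r and Klf2, and not for Cd4, Cd69, S1pr1 and Ccr7. The 250 bases before the start are printed for Klf2 and Ctla4, which had the largest differences of the 8 in T cells at 2 h and at 5 h, and for Il7r, which holds a match to a STAT motif. They lie at chr8:72318812-72319061 on the + strand, chr1:60908775-60909024 on the + strand and chr15:9529877-9530126 on the - strand. Capitals mark a motif match.
Klf2: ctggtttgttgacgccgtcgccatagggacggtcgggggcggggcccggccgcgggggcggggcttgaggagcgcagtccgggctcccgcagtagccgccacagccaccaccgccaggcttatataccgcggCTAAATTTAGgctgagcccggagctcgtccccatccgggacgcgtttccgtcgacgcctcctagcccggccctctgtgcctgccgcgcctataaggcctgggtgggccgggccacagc
Ctla4: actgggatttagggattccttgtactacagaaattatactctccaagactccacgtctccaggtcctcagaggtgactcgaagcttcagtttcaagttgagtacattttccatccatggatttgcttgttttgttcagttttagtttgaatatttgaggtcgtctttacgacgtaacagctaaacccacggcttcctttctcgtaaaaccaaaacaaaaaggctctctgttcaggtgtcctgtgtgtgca
Il7r: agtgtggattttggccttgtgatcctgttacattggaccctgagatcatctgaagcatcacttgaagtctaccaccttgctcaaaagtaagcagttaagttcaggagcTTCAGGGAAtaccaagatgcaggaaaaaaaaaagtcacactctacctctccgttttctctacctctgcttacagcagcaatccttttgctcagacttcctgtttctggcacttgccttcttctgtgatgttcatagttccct

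The motifs ISRE core, GAS, MEF2 and FOXO were searched on both strands, and the share of all 32851 promoters of this length that hold each one is given beside it. The core of the interferon-stimulated response element (ISRE: GAAA, any 2 bases, GAAA) occurred in none of the 4 promoters and in 2.98% of all promoters. The STAT dimer motif GAS, TTCNNNGAA, was found in Il7r as TTCAGGGAA, 142 to 134 bases before the start, and in 7.02% of all promoters. A MEF2 motif (CTA, any 4 bases, TAG) was found in Klf2 as CTAAATTTAG, 118 to 109 bases before the start, and in 3.2% of all promoters. The FOXO motif GTAAACA, held by 3.17% of all promoters, was found in none of the 4. These matches describe letters in a window and not binding.

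Some labels disagree. The titles of 5 of the 6 B10.Q macrophage arrays carry the code for spleen, whereas their source is given as the peritoneal cavity, and Gata6 was high on all 6. The T-cell vehicle array 1 has a title beginning with the code for B cells, but its other labels say CD4+ T cells, and its mean log2 level over 6 B cell markers, 6.96, was the lowest of the 6 T-cell arrays (highest 7.19). Each vehicle pair joins an array taken at 2 h and one taken at 5 h. The Ifnar1 KO pair titled without IFNα has a preparation text that states the 2 h injection, and the title was followed. Nothing in the labels states that paired arrays are from different animals, and p-values therefore measure only the spread between the arrays, which may be technical.

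The T-cell arrays 2 h after IFNα stood apart in macrophage markers. The mean log2 level over 9 macrophage markers was 8.33 on array 1 and 7.36 on array 2 of that group, against 6.84 to 6.97 on the other 4 T-cell arrays and 11.91 to 12.41 on the macrophage arrays. Lyz2, the lysozyme of macrophages and other myeloid cells, was at 12.20 and 10.02 on the 2 arrays taken at 2 h and at 7.34 to 7.67 on the other 4. Gata6, the defining transcription factor of peritoneal macrophages, was at 7.21 and 6.62 on them and at 6.57 to 6.88 on the others, against 10.63 to 11.85 on macrophage arrays. The part of these other transcripts in the T-cell results at 2 h was not tested, and values with and without each array are given below. Array 1 of 2 h also had the narrowest intensities of the 6 T-cell arrays, with upper over lower quartile at 6.62 against 6.97 to 7.36. The correlation r between the 2 arrays at 2 h was 0.9905, and 0.9962 in vehicle and at 5 h. The part of this spread in the results was not tested either.

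In T cells, 7 of the 8 genes were among the more strongly measured genes on the arrays and Ctla4 was moderate. Levels are given as log2 of the deposited intensity, and the percentile is the gene's place among all probe sets of its own array. Over the 6 T-cell arrays, Ccr7 lay at percentiles 98.67 to 98.94, Il7r at 97.87 to 98.73, Cd3e at 98.09 to 98.48, Cd4 at 97.46 to 97.98, S1pr1 at 97.27 to 97.51, Cd69 at 92.52 to 95.69, Klf2 at 87.54 to 91.94 and Ctla4 at 63.72 to 74.4. Since probe sets differ in how brightly they bind, these places do not rank the genes against each other. Cd69, often used as a mark of recent activation, was above the array median in the vehicle T cells. The series holds no T cells of known resting state to set it against, so its level does not show activation.

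On the 10 macrophage arrays, S1pr1 and Klf2 were well measured, Ccr7 was intermediate and the other 5 genes were low. Klf2 lay at percentiles 91.19 to 94.46 and S1pr1 at 88.3 to 93.68, above the array median on 10 of 10 arrays. Ccr7 was above the median on 9 of 10, at percentiles 49.37 to 70.58. Cd3e reached at most 49.42, Cd4 31.06, Ctla4 19.12, Il7r 15.47 and Cd69 15.44. None of these 5 was above the median of any macrophage array.

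**Figure D1:**
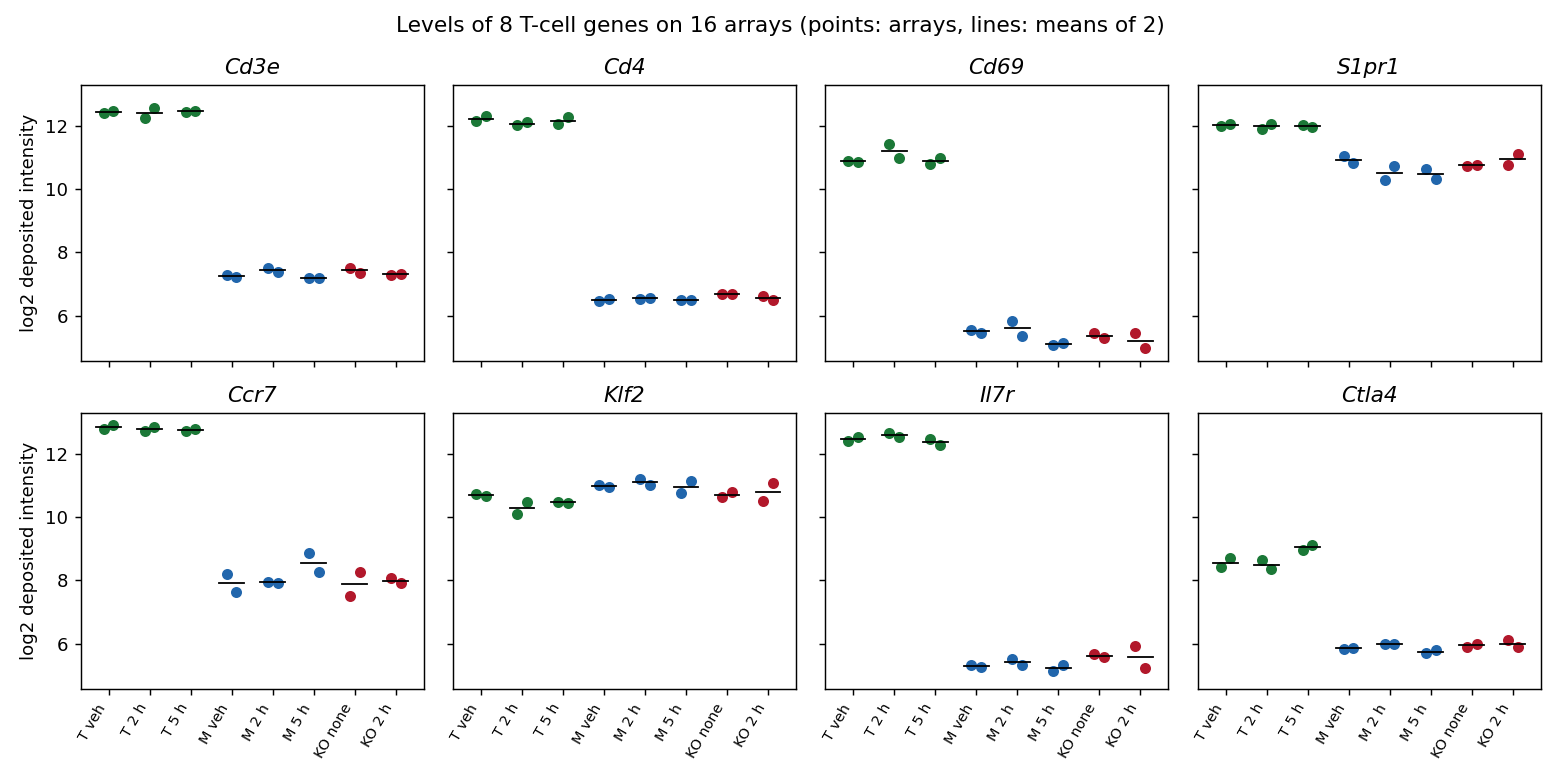
Log2 deposited intensity of the 8 genes on the 16 arrays (points, with lines for the means of 2) in T cells (T), B10.Q macrophages (M) and Ifnar1 KO macrophages (KO), after vehicle (veh), without IFNα by title (none) or 2 h and 5 h after IFNα. In T cells, 6 genes sit above 10.7, Klf2 at 10.10 to 10.72 and Ctla4 at 8.35 to 9.12, whereas in macrophages 5 genes stay below 7.6 and only S1pr1 and Klf2 stay above 10.

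Between vehicle T cells and vehicle B10.Q macrophages, 7 of the 8 genes were higher in T cells and none was lower (limma, Benjamini-Hochberg adjusted p under 0.05). Of all 11161 genes tested, 62.1% passed in either direction and 34.1% were higher in T cells. The genes were picked as T-cell genes, so the count is a check of the cells rather than a finding, and for Cd4 and Cd3e the sort itself used CD4 and the T-cell receptor. Cell type, tissue and sort cannot be told apart in this contrast.

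Il7r, which encodes the IL-7 receptor chain that sustains naive T cells, was at 12.40 and 12.53 on the vehicle T-cell arrays and at 5.32 and 5.28 on the vehicle macrophage arrays. Its log2 difference was 7.17 ± 0.11 (SE, n = 2 arrays a group, limma adjusted p = 4.78e-13), the largest of the 8. Cd4, the coreceptor, differed by 5.73 ± 0.10, Cd69 by 5.38 ± 0.16, Cd3e, a chain of the T-cell receptor complex, by 5.19 ± 0.11, Ccr7 by 4.91 ± 0.19 and Ctla4, an inhibitory receptor of activated and regulatory T cells, by 2.70 ± 0.12. For Cd69, Il7r and Ctla4 the macrophage values lay in the lowest 20 percent of each array.

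S1pr1 was shared by both cell types. It was at 11.99 and 12.05 on the vehicle T-cell arrays and at 11.03 and 10.81 on the vehicle macrophage arrays, which did not overlap, and the difference was 1.10 ± 0.15 (limma adjusted p = 3.81e-05). Klf2 was at 10.72 and 10.67 in vehicle T cells and at 11.01 and 10.94 in vehicle macrophages, a difference of -0.28 ± 0.14 (limma adjusted p = 0.106). With the mean of the 3 groups of each cell type in place of the vehicle pairs, Klf2 was lower in T cells by -0.53 ± 0.08 (limma adjusted p = 7.24e-05).

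At 2 h after IFNα, none of the 8 genes passed the test in T cells, in which 29 of all 10112 genes tested (0.287%) did. Klf2 was the only one of the 8 at an unadjusted p under 0.05, which 6.07% of all genes reached. For Cd4 and Klf2 the IFNα pair lay wholly below the vehicle pair, as for 19.4% of all genes, and for Cd69 wholly above it, as for 14.5%. The median log2 difference of the 8 genes was -0.05, beside -0.03 over all genes.

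At 5 h after IFNα, again none of the 8 passed, beside 2 of 10112 genes (0.0198%). Ctla4 was the only one at an unadjusted p under 0.05, which 3.83% of all genes reached. Its IFNα arrays lay above the vehicle arrays, as for 21.7% of all genes, and those of Klf2 below, as for 18.6%. The median of the 8 was -0.04, beside 0.00 over all genes. The 2 h and 5 h comparisons share the vehicle arrays.

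Cd3e and Cd4 mark the cells themselves. Cd3e was at 12.40 and 12.46 in vehicle, 12.24 and 12.57 at 2 h, and 12.42 and 12.47 at 5 h. The 2 h pair spans the other pairs, and the differences were -0.03 ± 0.12 and 0.01 ± 0.12. Cd4 was at 12.14 and 12.31 in vehicle, 12.02 and 12.10 at 2 h, and 12.05 and 12.27 at 5 h. Both arrays at 2 h were the lower ones, by -0.16 ± 0.11 (limma adjusted p = 0.763), and the 5 h pair overlapped the vehicle pair. In bulk RNA, fewer cells of a type and less RNA per cell cannot be told apart.

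Among the genes of egress and homing, S1pr1 was the steadiest. It was at 11.99 and 12.05 in vehicle, 11.90 and 12.06 at 2 h, and 12.03 and 11.97 at 5 h, so all 3 pairs overlapped. The difference was -0.04 ± 0.09 at 2 h, with a 95% interval of -0.26 to 0.18, and -0.02 ± 0.09 at 5 h, with an interval of -0.24 to 0.20. With 2 arrays a group, a change of S1pr1 RNA within these intervals is not excluded. The intervals are not adjusted over all genes, so they are no limit of detection for the test.

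Ccr7, the receptor for entry into lymph nodes, was at 12.78 and 12.89 in vehicle, 12.70 and 12.84 at 2 h, and 12.70 and 12.79 at 5 h. The lower vehicle array lay inside the range of the IFNα arrays. The differences were -0.06 ± 0.10 (95% interval -0.29 to 0.16) at 2 h and -0.09 ± 0.10 (-0.31 to 0.14) at 5 h.

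Cd69 was at 10.90 and 10.86 in vehicle, 11.41 and 10.97 at 2 h, and 10.78 and 10.98 at 5 h. Only array 1 at 2 h stood well above the rest. The difference was 0.31 ± 0.15 at 2 h (95% interval -0.04 to 0.66, limma adjusted p = 0.763) and 0.01 ± 0.15 at 5 h. With array 2 left out, array 1 alone gave 0.53 (limma adjusted p = 0.0105), in a fit that called 18.1% of all genes and assumes that the lone array varies like the other groups. With array 1 left out, array 2 gave 0.09.

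Klf2 was at 10.72 and 10.67 in vehicle, 10.10 and 10.48 at 2 h, and 10.46 and 10.45 at 5 h. All 4 IFNα arrays were below both vehicle arrays, with array 1 at 2 h the lowest. The difference was -0.41 ± 0.13 at 2 h (95% interval -0.71 to -0.11, unadjusted p = 0.0150 in limma's model, adjusted p = 0.763) and -0.24 ± 0.13 at 5 h (interval -0.54 to 0.07, adjusted p = 0.9998). Without array 2, in the same fit, the 2 h difference was -0.60 (limma adjusted p = 0.00279), and without array 1 it was -0.22.

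The highest Cd69 and the lowest Klf2 value in T cells were thus on the same array, the one with the highest macrophage markers. On the 10 peritoneal macrophage arrays, Cd69 lay at 4.97 to 5.84 and Klf2 at 10.51 to 11.20. Whether the macrophage transcripts on the T-cell arrays came from like cells was not tested, nor was their part in the Cd69 and Klf2 values.

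**Figure D2:**
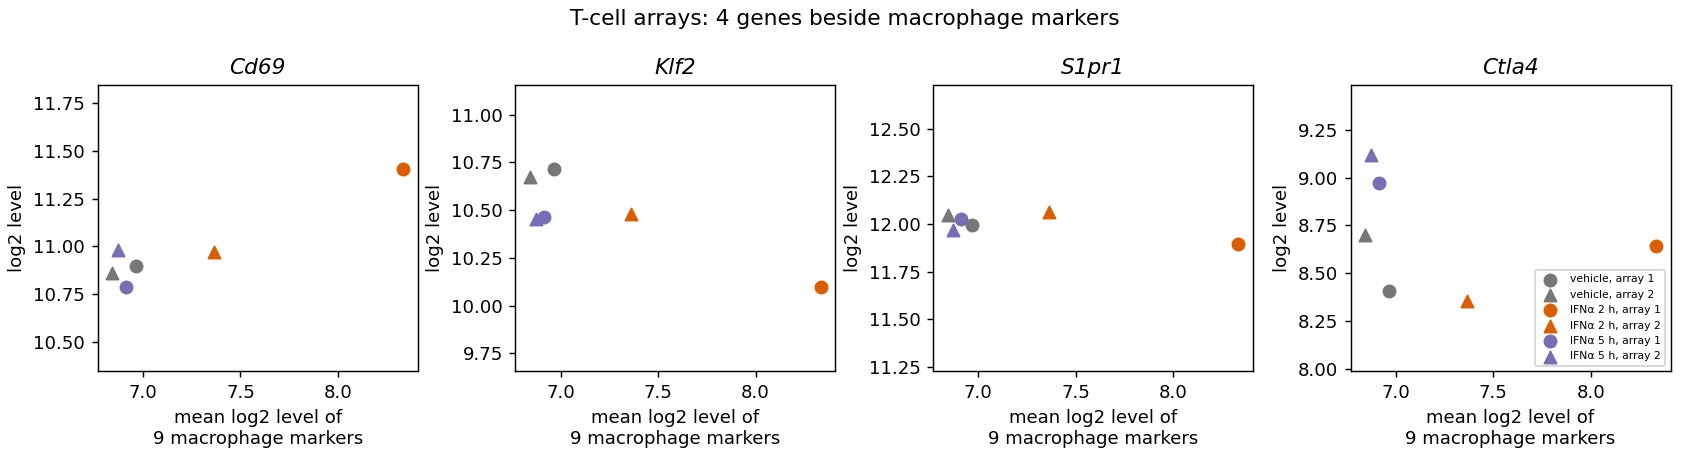
Log2 level of Cd69, Klf2, S1pr1 and Ctla4 (vertical axes, each spanning the same range) against the mean log2 level of 9 macrophage markers (horizontal axis) on the 6 T-cell arrays. Array 1 at 2 h, at a marker mean of 8.33, has the highest Cd69 and the lowest Klf2, whereas the highest Ctla4 values, 8.97 and 9.12, are on the 5 h arrays, with marker means of 6.91 and 6.87.

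Il7r was at 12.40 and 12.53 in vehicle, 12.65 and 12.51 at 2 h, and 12.46 and 12.26 at 5 h. Both pairs of IFNα arrays overlapped the vehicle pair, with differences of 0.11 ± 0.11 at 2 h and -0.11 ± 0.11 at 5 h. Its 5 h arrays were both below its 2 h arrays.

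Ctla4 was at 8.41 and 8.70 in vehicle, 8.64 and 8.35 at 2 h, and 8.97 and 9.12 at 5 h. The vehicle and 2 h pairs overlapped, and both 5 h arrays were above all 4 others. Of all genes, 21.7% had both 5 h arrays above the vehicle pair and 24% above the 2 h pair. The share with both at once is not given here. The difference was -0.06 ± 0.14 at 2 h and 0.49 ± 0.14 at 5 h (95% interval 0.16 to 0.82, unadjusted p = 0.00928 in limma's model, adjusted p = 0.9998). Against the vehicle array of its own time alone, the 5 h difference was 0.34 ± 0.16.

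Between 5 h and 2 h, none of the 8 genes passed, beside 1 of 10112 genes (0.00989%). Ctla4 was higher at 5 h by 0.55 ± 0.14 (unadjusted p = 0.00539, limma adjusted p = 0.386), with both arrays above, as for 24% of all genes. It was the only one of the 8 at an unadjusted p under 0.05, as were 9.85% of all genes. Il7r was at -0.22 ± 0.11, both arrays below, as for 15.6% of all genes, Cd69 at -0.30 ± 0.15 and Klf2 at 0.17 ± 0.13. Without array 2 at 2 h, Cd69 (-0.52, limma adjusted p = 0.0128) and Klf2 (0.36, adjusted p = 0.0270) passed the test, in a fit that called 1641 of 10041 genes (16.3%).

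**Figure D3:**
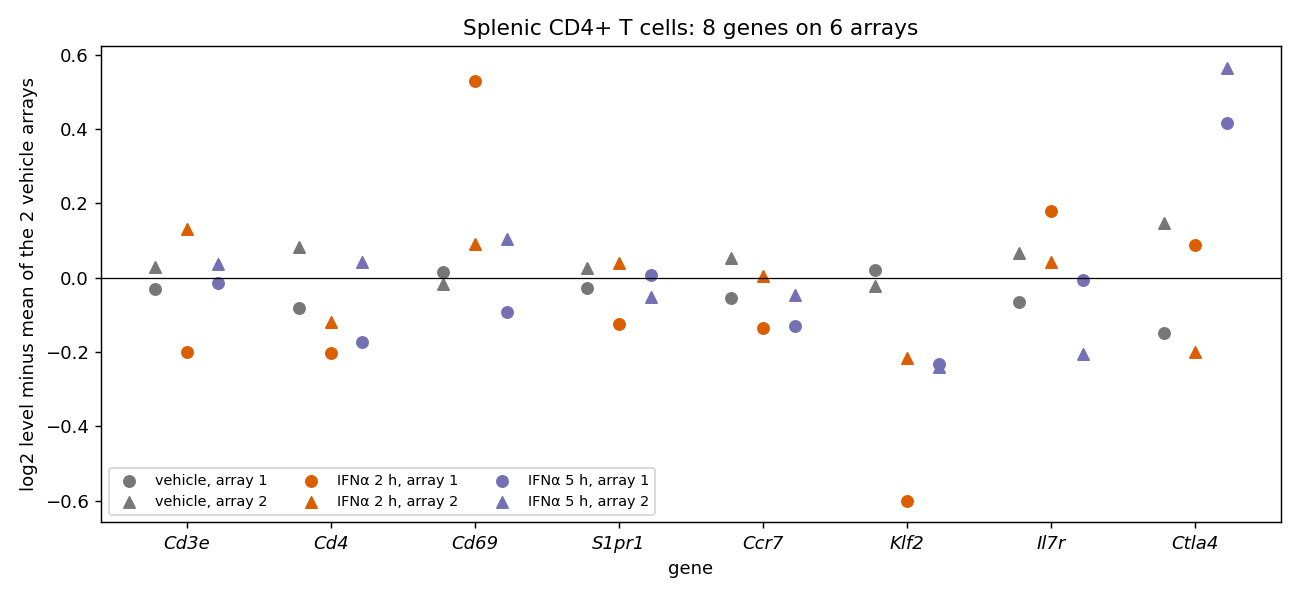
Log2 level of each gene on each T-cell array minus the mean of the 2 vehicle arrays of that gene (circles for array 1, triangles for array 2, colours for the 3 groups). The 5 h arrays of Ctla4 lie above all others of that gene, all 4 IFNα arrays of Klf2 lie below 0, and array 1 at 2 h sets the spread of Cd69. The share of all genes with such an order over the 3 groups is not given here.

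The interferon-stimulated genes served as a check of response in the T-cell samples. The part of the macrophage transcripts in their 2 h rise was not tested, and the list's median in B10.Q macrophages at 2 h was 3.70. At 2 h, 8 of the 14 measured on this list of 16 rose, none fell, and the list's median was 2.06. Over all genes, 0.287% passed in either direction. Ifit1, an RNA-binding antiviral effector, was at 6.67 and 6.87 in vehicle and at 12.41 and 11.62 at 2 h, a difference of 5.24 ± 0.28 (limma adjusted p = 0.000771). Usp18, a negative regulator of the type I interferon receptor, rose by 3.43 ± 0.27, Rtp4 by 3.34 ± 0.15 and the GTPase gene Mx2 by 2.65 ± 0.31. At 5 h, Rtp4 alone passed, at 2.14 ± 0.15 (limma adjusted p = 0.00731), and the median was 0.88. Without array 1 of 2 h, the list's median over 12 measured genes was 1.60 at 2 h, and without array 2 it was 2.48. The 5 h median was 0.98 in both fits, which share the same 5 h comparison. Mx2 and Rsad2, also on the list, were not among the 12 measured without array 2. They passed the filter on low values only with that IFNα array, on which they were above the median. Without array 1 the list also had 12 measured genes, so array 2 is not singled out by this. The rise of Mx2 and Rsad2 at 2 h is therefore no support for a response. The median of 2.06 over 14 genes includes both, and the count of 8 includes Mx2.

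The other T-cell lists, the neighbours of the 8 genes in function, held no gene that passed at 2 h or at 5 h. Of 18 measured genes of the T-cell receptor complex and its proximal signalling, the median was -0.02 at 2 h and -0.07 at 5 h. For 17 genes of homing, egress and migration it was -0.10 and -0.03, for 23 activation-induced genes -0.03 and 0.06, and for 17 genes of IL-7 receptor signalling and quiescence -0.02 and 0.08. The 7 measured regulatory T cell genes, some of which also stand among the activation-induced genes, had medians of -0.05 and 0.10.

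A few of their members are named here because of their values. S1pr4, a further sphingosine 1-phosphate receptor, was at -0.57 ± 0.17 at 2 h (limma adjusted p = 0.705) and -0.15 ± 0.17 at 5 h. Socs3, a feedback inhibitor of cytokine signalling, was at 0.57 ± 0.23 and 0.92 ± 0.23, and the kinase gene Pim2 at 0.06 ± 0.10 and 0.49 ± 0.10. Trat1, an adaptor bound to the T-cell receptor, was at 0.03 ± 0.08 and -0.44 ± 0.08. Socs3, Pim2 and Trat1 passed at 5 h when a T-cell array of 2 h was left out of the fit, with their 5 h differences unchanged. Leaving out array 1 or array 2 is in effect the same 5 h test. The lone 2 h array adds nothing to the spread within groups, so the 2 fits do not back each other.

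Without array 2 at 2 h, 2 h calls appeared in every list except that of regulatory T cells. Of the homing genes, 6 fell (Itgb7, Ccr9, S1pr4, Coro1a, Foxo1 and Klf3), and of the receptor genes 4 fell (Cd3d, Cd28, Thy1 and Sit1) and 1 rose (Ptprc). Of the activation-induced genes 4 fell and 1 rose, and of those of IL-7 receptor signalling and quiescence 2 fell and 1 rose. Over all genes this fit called 1817 of 10041 (18.1%), against 71 without array 1, 0 without vehicle array 1 and 2 without vehicle array 2. The array left alone in it is the one with the highest macrophage markers.

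Since Ctla4 is carried at high level by regulatory T cells, their genes are set beside it. Foxp3, their defining transcription factor, was at 10.04 and 10.06 in vehicle and at 9.76 and 10.18 at 5 h, a difference of -0.08 ± 0.16. Ikzf2 was at 0.33 ± 0.12, Gpr83 at 0.31 ± 0.14 and Il2ra at 0.10 ± 0.16 at 5 h, and none passed. Of the 7 measured, 5 were above 0, beside 5202 of all 10112 genes, and the list's median was 0.10.

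**Figure D4:**
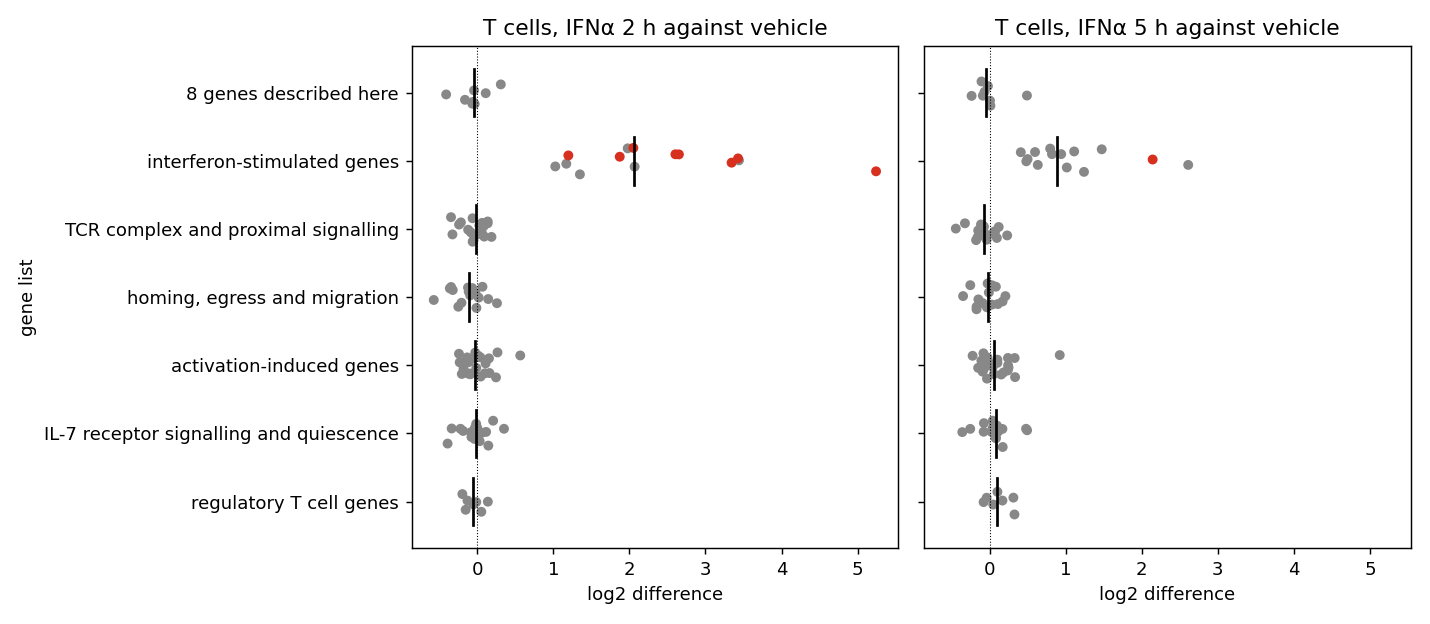
Log2 differences in T cells, IFNα 2 h (left) and 5 h (right) against vehicle, one point per measured gene of each list, with black bars for list medians and red points for genes that passed the test (limma adjusted p under 0.05). Red points occur only among the interferon-stimulated genes, 8 at 2 h and 1 at 5 h. Of that list, Mx2 and Rsad2 passed the filter on low values only with IFNα array 2 at 2 h.

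In B10.Q macrophages, S1pr1, Ccr7 and Klf2 were the 3 of the 8 genes that passed the filter on low values, and none of the 3 passed the test at 2 h or 5 h. Of all 10531 genes tested, 0.798% passed at 2 h and 0.836% at 5 h, and 4.52% and 3.93% had an unadjusted p under 0.05. S1pr1 was at 11.03 and 10.81 in vehicle, 10.27 and 10.72 at 2 h, and 10.64 and 10.31 at 5 h. All 4 IFNα arrays were below both vehicle arrays, as for 32.2% of all genes at 2 h and 20.3% at 5 h. The differences were -0.42 ± 0.18 (unadjusted p = 0.0412, limma adjusted p = 0.984) and -0.45 ± 0.18 (0.0325 and 0.9998).

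Ccr7 in these macrophages was at 8.20 and 7.64 in vehicle, 7.94 and 7.93 at 2 h, and 8.85 and 8.26 at 5 h. The 5 h arrays were both above the vehicle arrays, as for 19.1% of all genes, by 0.64 ± 0.27 (unadjusted p = 0.0386, limma adjusted p = 0.9998). Klf2 was at 11.01 and 10.94 in vehicle, 11.20 and 11.02 at 2 h, and 10.74 and 11.13 at 5 h, with differences of 0.13 ± 0.19 and -0.04 ± 0.19. Between 5 h and 2 h, 0.0095% of all genes passed and none of the 3 did, with Ccr7 at 0.62 ± 0.27, both arrays above, as for 29.7% of all genes. Its unadjusted p of 0.0420 in limma's model was under 0.05, as for 5.02% of all genes.

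In Ifnar1 KO macrophages, no gene passed between 2 h of IFNα and the pair titled without it (0% of 10531 in limma's test, 4.37% at an unadjusted p under 0.05, where none of the 3 stood). S1pr1 was at 10.74 and 10.76 without IFNα and at 10.77 and 11.09 with it. Both IFNα arrays were the higher ones, as for 11.5% of all genes, and the difference was 0.18 ± 0.18. Ccr7 was at 0.11 ± 0.27 and Klf2 at 0.09 ± 0.19.

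Array 1 of the Ifnar1 KO pair given IFNα stood apart. Its macrophage marker mean of 11.91 was the lowest of the 10 macrophage arrays and its B cell marker mean of 7.86 the highest, against 12.33 and 6.93 on array 2. Array 1 of the pair without IFNα also had a B cell marker mean of 7.64, whereas no B10.Q macrophage array was above 6.98, and the part of these transcripts in the results was not tested. Without array 1 of the IFNα pair, S1pr1 was at 0.35, Ccr7 at 0.02 and Klf2 at 0.37, and without array 2 they were at 0.02, 0.19 and -0.19. None of the 3 passed in either fit, of which the former called 37 of all genes and the latter 1191.

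The 2 h response of S1pr1 in B10.Q macrophages minus that in Ifnar1 KO macrophages was -0.61 ± 0.26 (unadjusted p = 0.0389, limma adjusted p = 0.768), in a comparison that 0.408% of all genes passed. Without array 1 of the Ifnar1 KO pair given IFNα it was -0.77 ± 0.24 (limma adjusted p = 0.194), where 0.901% of all genes passed. Strain, age, Tyk2 and Ifnar1 cannot be told apart in it.

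**Figure D5:**
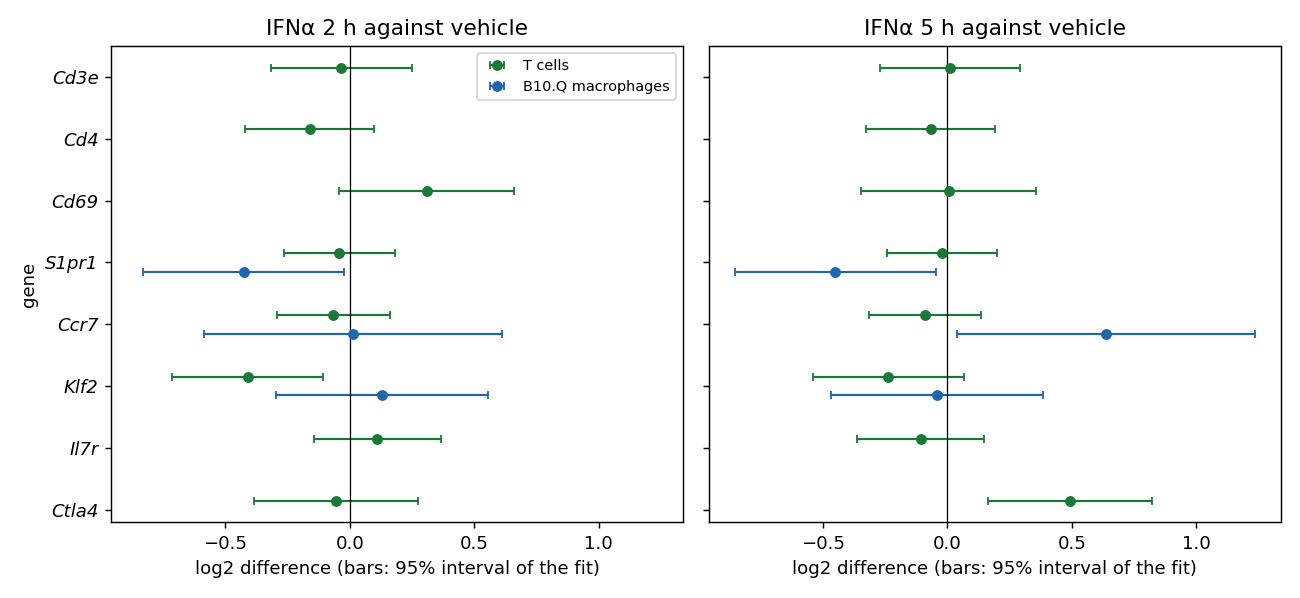
Log2 difference from vehicle with its 95% interval in the fit, 2 h (left) and 5 h (right) after IFNα, in T cells (green, 8 genes) and B10.Q macrophages (blue, the 3 genes that passed the filter there). The T-cell intervals that leave out 0 are those of Klf2 at 2 h and Ctla4 at 5 h, and neither passed after adjustment over all genes.

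The responses of the 2 cell types were compared directly as a difference of differences over the 12 B10.Q arrays. At 2 h, none of the 8 genes passed, beside 3 of 11161 genes (0.0269%), with 7.3% of all genes at an unadjusted p under 0.05. The difference was -0.54 ± 0.20 for Klf2 (T cells minus macrophages, unadjusted p = 0.0206, limma adjusted p = 0.647), 0.38 ± 0.21 for S1pr1 and 0.22 ± 0.23 for Cd69. Klf2 passed only without array 2 of the T cells at 2 h, at -0.73 (limma adjusted p = 0.0463), in a fit that called 511 genes (4.59%). At 5 h, none passed, beside 28 genes (0.251%), with 4.98% of all genes at an unadjusted p under 0.05. Ctla4 was at 0.59 ± 0.17 (unadjusted p = 0.00517, limma adjusted p = 0.414), Ccr7 at -0.73 ± 0.27 (adjusted p = 0.757) and S1pr1 at 0.43 ± 0.21. For Cd3e, Cd4, Cd69, Il7r and Ctla4 the macrophage term comes from low values.

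Because no member passed in a T-cell contrast, the genes of most similar course are given only as a description, chosen after the values were seen, by Pearson correlation over the 6 T-cell arrays among 10111 genes. For Cd69 they were Zranb3 (r = 0.994), B3gnt2 (0.992) and Fcna (0.989), for Klf2 F2r (0.995), Zfp747 (0.994) and Hmg20b (0.993). The likest gene of each other member had an r of 0.988 (Ctla4) to 0.999 (Il7r), so such values are not particular to Cd69 and Klf2. All these correlations share the same 6 arrays, and array 1 at 2 h lies farthest out for both Cd69 and Klf2.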

How the data were processed

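RNA of 16 samples was measured on Affymetrix mouse gene arrays. The authors deposited 1 linear intensity per probe set and array, made with Affymetrix Power Tools and RMA per the submitters' processing notes, with versions not given in the sources used here. Array medians were 173.57 to 193.7, and upper over lower quartile of intensity was 5.49 (Ifnar1 KO, IFNα 2 h, array 1) to 7.52 per array, so the deposited distributions are not identical. The log2 of the deposited intensity was taken.

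Of 24922 probe sets, 21425 had 1 gene symbol, 1399 several and 2098 none, and of a gene's probe sets the one with the highest mean over the 16 arrays was kept. Genes above the array's median on at least 2 arrays of a fit were tested with limma 3.58.1 in R 4.3.3 (moderated linear model, Benjamini-Hochberg over all genes, adjusted p under 0.05). Fits used 6 T-cell arrays, 10 macrophage arrays or 12 B10.Q arrays, and the script was tested on simulated data. Alternatives changed the filter, scaling, probe set choice, variance model, arrays and replicate block.

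The 8 members and the lists were chosen with earlier results of these data known. Besides the 8, up to 4 genes of each list with the largest difference among those called in T cells were named. Others were named after their values were seen. The number of arrays limits the precision.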

Additional observations from a re-analysis of the deposited data

Results flagged for a closer look

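Of 15 measured interferon-stimulated genes, 6 had a lower response at 5 h in T cells than in B10.Q macrophages, in a comparison that 28 of 11161 genes passed. Rtp4 responded less in T cells by -2.79 on the log2 scale (limma, difference of differences, adjusted p = 0.000716) and Mx2 by -2.92 (adjusted p = 0.0267). Both are named because they were among the called genes of T cells at 2 h. In T cells, Mx2 met the filter on low values only with IFNα array 2 at 2 h in the fit. The list had 12 measured genes in T cells without array 1 of 2 h as well. The 5 h difference of Mx2 in T cells, 0.63 ± 0.31, thus rests largely on low values.

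The S1pr1 arrays at 2 h of IFNα lay below their control pair in B10.Q macrophages, as for 32.2% of all genes. In Ifnar1 KO macrophages they lay above it only barely, as for 11.5% of all genes. There the lower IFNα array was at 10.768 and the higher control array at 10.755. Neither difference passed. The difference between these responses, -0.61, did not pass the test either (limma adjusted p = 0.768). For Klf2, the 2 h arrays lay below vehicle in T cells, as for 19.4% of all genes. In B10.Q macrophages they lay above it only barely, with the lower 2 h array at 11.016 and the higher vehicle array at 11.011. Neither difference passed, and nor did the difference between them, -0.54 (limma adjusted p = 0.647).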

How the results depend on the processing

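For the 8 genes taken one at a time, 877 values under an alternative stayed on their side of the threshold, and 7 passed the threshold only under the alternative. No call was lost and no called value changed sign. The count of the 8 that passed was 0 in all response comparisons under every alternative except leaving out single arrays. Without single arrays it was 0 to 2 in T cells at 2 h, 0 to 2 for 5 h against 2 h and 0 to 1 for the difference of responses at 2 h. For vehicle levels it was 7, or 8 with only the compared groups or the 3-group means. Setting each IFNα group against the vehicle array of its own time, chosen after seeing the data, called none of the 8.

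The count over all genes was less steady. In T cells at 2 h it was 29, with 2 to 50 under the other alternatives and 0 to 1817 without single arrays of the groups compared. At 5 h it was 2, with 0 to 63, 0 without an array of the groups compared and 65 without either T-cell array of 2 h. For 5 h against 2 h it was 1, with 0 to 7 and 0 to 1641. In B10.Q macrophages it was 84 at 2 h (36 to 123 in both kinds of alternative), 88 at 5 h (33 to 203, and 29 to 38) and 1 for 5 h against 2 h (0 to 40, and 1 to 5). In Ifnar1 KO macrophages it was 0 (0 to 11, and 0 to 1191). For the difference of responses it was 3 at 2 h (1 to 7, and 1 to 511) and 28 at 5 h (9 to 140, and 6 to 11). Leaving out an array leaves some groups with 1 array, assumed to vary like the others. Such a lone array adds nothing to the spread, so the fits without array 1 or array 2 of the T cells at 2 h are in effect 1 test at 5 h.

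The deviations of arrays with the same number had an r of -0.065, 0.15 and 0.184 in T cells and of 0.0, 0.14 and -0.052 in B10.Q macrophages, not over 0.1 in every pair, and the arrays were treated as unpaired. With the replicate number as a block, 0 of the 8 genes passed in each response comparison and 7 in the level comparison. The block changed no call of the 8. In the Ifnar1 KO arrays the r was -0.297, and with the numbers crossed the block called 0 of the 3 genes tested and 0 of all genes.

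With 2 arrays a group, the widest 95% interval of a T-cell response among the 8 genes, that of Cd69, ran from -0.35 to 0.36 at 5 h.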
